A study of Homo sapiens with 36 samples.

Results

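MYC, MYCL, MAX, MXD1, MXD3, MXD4, MXI1, MNT, MLX and MGA are the members of the MYC and MAX network followed here. They were chosen by gene symbol and are 10 of the 26475 genes in the count table. All 10 passed the filter on low counts in each experiment. In the MDA-MB-468 line MYCL did so through the hairpin libraries, as its controls held 5, 10 and 8 counts. RNA was extracted from 3 human cancer cell lines, MDA-MB-468 (basal-like breast cancer), PANC-1 (pancreatic carcinoma) and WiDr (colorectal adenocarcinoma), selected for poly-A RNA and sequenced. In 3 experiments, 1 in each line, cells carried the pGIPZ vector with a non-silencing hairpin (pGIPZ-NS, the control) or with hairpin 1 or hairpin 2 against a single target gene. In the other experiment WiDr cells carried a non-target guide RNA (NT-1, the control) or guide 1 or guide 2 against the same gene. Each of the 12 groups held 3 libraries, which the design text calls biological replicates, so 36 libraries were compared. Whether the cells of a group were a pool or 1 clone, and how long they carried a construct, is not given in the labels. For 4 of the 6 targeting guide libraries the genotype field names the other guide, and the titles were followed. Those 4 are guide 1 replicate 3 and all of guide 2, so by the genotype field guide 2 is 1 library. In PANC-1 the second targeting arm is called the libraries labelled hairpin 2, because the RNA level of the targeted gene, not reported here, was not lowered in them and so went against that label.

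By GENCODE 29 on GRCh38, MYC lies on chromosome 8 (127735434 to 127741434, plus strand) and MYCL on chromosome 1 (39895426 to 39902256, minus strand). MAX lies on chromosome 14 (65006174 to 65102695, minus strand). The MXD genes are MXD1 on chromosome 2 (69897688 to 69942945, plus strand), MXD3 on chromosome 5 (177301461 to 177312757, minus strand) and MXD4 on chromosome 4 (2247432 to 2262294, minus strand). MXI1 lies on chromosome 10 (110207605 to 110287365, plus strand) and MNT on chromosome 17 (2384060 to 2401118, minus strand). MLX is on the same chromosome (42567068 to 42573239, plus strand) and MGA on chromosome 15 (41621224 to 41773081, plus strand). Some members overlap protein-coding neighbours: MAX overlaps FNTB and CHURC1-FNTB, MXD3 overlaps PRELID1 and RAB24, MXD1 overlaps SNRNP27 and MLX overlaps PSMC3IP. MYCL, MAX, MXI1 and MNT overlap antisense genes, and MGA overlaps a lincRNA. The strand setting of the counting is not given in the sources used here, so reads from overlapping stretches cannot be told apart and these values are uncertain to that extent.

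The network is a set of basic helix-loop-helix leucine zipper proteins that bind DNA in pairs. MYC and MYCL pair with MAX at E-boxes (CACGTG) and activate genes of growth and ribosome production. MXD1, MXD3, MXD4, MXI1 and MNT also pair with MAX, bring in SIN3 corepressors and act against MYC at the same sites. MNT and MXD members can pair with MLX as well, which joins the network to the glucose-sensing factors MLXIP and MLXIPL. MGA, the giant of the family, pairs with MAX and is part of a Polycomb complex (PRC1.6). MYC is amplified or driven by Wnt signalling in many colorectal cancers.

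The proteins of the network act on each other's sites, so the promoters of the members themselves were read for the E-box. RefSeq promoters (250 bases before to 50 after a start, GRCh38.p14) were at hand for 9 of the 10 members, 14 promoters in all. CACGTG was searched on both strands, as was its core ACGTG, which every CACGTG contains and which also occurs in sites of the hypoxia-inducible factors. The E-box was found in the promoters of MXD4, MNT and MLX, 1 match each, and the core alone in 1 promoter each of MXI1, MAX and MGA. Of all 35116 promoters of 300 bases, 7.26% hold the E-box and 21.4% hold the core. The 3 promoters with an E-box and the MXI1 promoter with the core are shown, picked by changes of their genes. MXI1 rose in both PANC-1 arms, MNT in 1 of them and with guide 1, and MXD4 and MLX moved both ways in WiDr. The other MXI1 promoters hold no match, and the MAX and MGA promoters with the core are not shown. A link between a match and a change was not tested. The MXD1 promoter, whose gene also rose in both PANC-1 arms, holds no match. Each is printed 5′ to 3′, with the match in capitals (in MXI1 the core lies on the other strand and reads CACGT), starting at position 13 in MXD4, 58 in MNT, 201 in MLX and 138 in MXI1, counted from 1 at the 5′ end. A match of letters is a description of the window and not a site.
MXD4 promoter at chr4:2262060-2262359, minus strand: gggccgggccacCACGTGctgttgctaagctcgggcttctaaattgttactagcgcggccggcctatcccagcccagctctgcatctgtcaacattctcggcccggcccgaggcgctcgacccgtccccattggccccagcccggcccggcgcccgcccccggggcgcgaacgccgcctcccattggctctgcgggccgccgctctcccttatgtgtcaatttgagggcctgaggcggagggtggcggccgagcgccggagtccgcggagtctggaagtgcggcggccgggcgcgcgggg
MNT promoter at chr17:2401011-2401310, minus strand: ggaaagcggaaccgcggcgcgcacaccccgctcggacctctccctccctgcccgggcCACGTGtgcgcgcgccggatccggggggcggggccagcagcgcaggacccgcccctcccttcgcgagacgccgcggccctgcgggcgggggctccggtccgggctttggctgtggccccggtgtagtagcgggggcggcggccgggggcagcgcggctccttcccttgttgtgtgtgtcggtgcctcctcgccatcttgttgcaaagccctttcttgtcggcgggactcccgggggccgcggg
MLX promoter at chr17:42566850-42567149, plus strand: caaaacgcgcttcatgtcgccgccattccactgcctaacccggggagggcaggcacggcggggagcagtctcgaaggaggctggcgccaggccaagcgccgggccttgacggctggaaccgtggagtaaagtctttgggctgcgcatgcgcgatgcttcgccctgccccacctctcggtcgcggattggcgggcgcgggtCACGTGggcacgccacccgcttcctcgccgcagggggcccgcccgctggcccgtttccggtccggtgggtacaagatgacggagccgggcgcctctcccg
MXI1 promoter at chr10:110209981-110210280, plus strand: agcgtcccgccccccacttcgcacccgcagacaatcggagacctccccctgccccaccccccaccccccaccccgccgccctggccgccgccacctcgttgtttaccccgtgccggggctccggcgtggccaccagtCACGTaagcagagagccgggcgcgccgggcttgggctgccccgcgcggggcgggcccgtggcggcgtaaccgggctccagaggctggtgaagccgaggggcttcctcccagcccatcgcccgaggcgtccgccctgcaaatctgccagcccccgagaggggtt

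Library totals ran from 28371127 to 49237322 expected counts. Lineage markers were read in each line. KRT5 (basal keratin) was at 1500 to 2520 CPM in MDA-MB-468 and at most 0.129 CPM elsewhere, VIM (a mesenchymal filament) at 3510 to 7050 CPM in PANC-1, and KRT20 (an intestinal keratin) at 260 to 730 CPM in WiDr. CDX1, CDX2 and CDH17, also intestinal markers, were low in WiDr (0.132 to 3.16 CPM), the basal breast marker GABRP was higher in WiDr (48.1 to 140 CPM) than in MDA-MB-468 (26.7 to 47.3 CPM), CDX2 was higher in PANC-1 (4.38 to 11.8 CPM), and KRT7, a ductal keratin, was at 5.15 to 9.53 CPM in PANC-1. The leukocyte marker PTPRC stayed at or below 0.161 CPM throughout, and CD68, a macrophage marker, was at 75.3 to 178 CPM in PANC-1. The share of ribosomal RNA genes was 4.61% to 9.60% in PANC-1 controls and 0.838% to 2.60% in the other PANC-1 libraries. With WiDr hairpin 2 it was 5.38% to 10.2%, and 1.27% to 2.71% in the other WiDr hairpin libraries. Leaving these genes out before scaling changed the call of none of the 80 member values of a construct against its control. That checks the scaling alone, and other differences that go with the share were not tested. Between libraries of a group the counts differed by more than sampling noise (chi-square per degree of freedom up to 188). Levels are CPM, counts scaled to library size, on a scale common to all 36 libraries, while log2 fold changes come from edgeR's quasi-likelihood fit of each experiment and are called at a Benjamini-Hochberg adjusted p under 0.05. In RNA from whole cultures, fewer cells of a kind and less RNA per cell cannot be told apart.

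In the control libraries the network was set at different levels in the 3 lines, and WiDr had the most MYC RNA. MYC was at 319.6 ± 12.2 CPM (SD, n = 3) in WiDr with the non-silencing hairpin, 164 ± 4.45 CPM in MDA-MB-468 and 73.3 ± 4.90 CPM in PANC-1. WiDr lay above MDA-MB-468 by 0.95 on the log2 scale (SE 0.0729, adjusted p = 1.92e-07), and PANC-1 lay below MDA-MB-468 (-1.23, SE 0.0736, adjusted p = 1.88e-08). No 2 of these groups overlapped. MYCL, a MYC relative best known from small cell lung cancer, was at 9.15 ± 0.716 CPM in WiDr, 1.08 ± 0.194 CPM in PANC-1 and 0.222 ± 0.0721 CPM in MDA-MB-468. That order held in each pair (PANC-1 over MDA-MB-468 by 2.21, SE 0.249; WiDr over PANC-1 by 3.12, SE 0.182). MXD1, a repressor that rises when many cell types differentiate, was lowest in PANC-1: 4.33 ± 0.638 CPM against 31.1 ± 6.02 CPM in MDA-MB-468 and 78.8 ± 3.52 CPM in WiDr (PANC-1 against MDA-MB-468 -2.91, SE 0.153, adjusted p = 6.34e-09). MXI1, a MAX-binding repressor, was likewise highest in WiDr (88.3 ± 4.25 CPM) and closer together in MDA-MB-468 (27.9 ± 0.640 CPM) and PANC-1 (23.7 ± 0.731 CPM, log2 difference -0.31, adjusted p = 0.00176).

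MXD4 rose through the lines in another order, with 11.96 ± 0.154 CPM in MDA-MB-468, 30.5 ± 2.36 CPM in PANC-1 and 45.1 ± 2.13 CPM in WiDr (PANC-1 against MDA-MB-468 1.28, SE 0.0771; WiDr against PANC-1 0.62, SE 0.0747). MXD3, the MXD member linked to proliferating cells, ran the other way: 16.6 ± 2.34 CPM in MDA-MB-468, 7.28 ± 2.29 CPM in PANC-1 and 4.69 ± 0.695 CPM in WiDr. The step from PANC-1 to WiDr in MXD3 (-0.57, adjusted p = 0.0301) lost its call when PANC-1 control replicate 2 or 3 or WiDr control replicate 1 or 3 was left out (adjusted p 0.0875 to 0.122). MAX, the shared partner, ran from 27.8 ± 3.97 CPM in PANC-1 through 39.7 ± 1.63 CPM in MDA-MB-468 to 49.7 ± 1.23 CPM in WiDr. MNT was at 31.0 ± 0.880 CPM in WiDr and did not differ beyond its spread between MDA-MB-468 (16.6 ± 2.51 CPM) and PANC-1 (18.6 ± 3.84 CPM, 0.10, adjusted p = 0.581). MLX did not differ beyond its spread in any pair of lines at the threshold (61.2 ± 9.67 CPM in MDA-MB-468, 61.5 ± 9.79 CPM in PANC-1 and 71.9 ± 1.59 CPM in WiDr, adjusted p 0.0542 to 0.640). The WiDr differences from either line passed without MDA-MB-468 control replicate 1 (MLX adjusted p = 0.0165 and 0.0221), that from PANC-1 also without MDA-MB-468 control replicate 2 (0.0311) or PANC-1 control replicate 2 (0.0172). Of the 10 members, 7 differed between the PANC-1 and MDA-MB-468 controls, 9 between WiDr and MDA-MB-468 and 8 between WiDr and PANC-1, where 72.4%, 74.7% and 75.1% of all 16344 tested genes differed. Line, vector copy and culture cannot be told apart in these comparisons.

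The control arms of WiDr itself differed for 6 members, with 1 higher and 5 lower in the guide control, while 26.4% of all genes differed between these arms. MYC was at 224 ± 15.4 CPM with the non-target guide, below the hairpin control by -0.54 (SE 0.0725, adjusted p = 0.000304). MAX (-0.38), MXD1 (-0.64), MXI1 (-0.55) and MLX (-0.42) were lower too, and MXD4 was higher (70.6 ± 3.28 CPM, 0.62, SE 0.0742, adjusted p = 0.00015). The MLX difference lost its call without any 1 of the 6 WiDr control libraries (adjusted p 0.0642 to 0.0841). Vector, selection and culture differ between these arms together and cannot be told apart. Each construct is therefore read against the control of its own experiment.

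Compared per kilobase of the longest coding transcript, MYC was the most abundant member in all 4 control groups: 69.2 ± 1.88 CPM per kb in MDA-MB-468, 31.0 CPM per kb in PANC-1, 135 CPM per kb in the WiDr hairpin control and 94.7 CPM per kb in the guide control. Next came MLX in each group (23.7, 23.8, 27.8 and 21.3 CPM per kb). MYCL stayed below MYC even in WiDr (2.81 and 2.84 CPM per kb). These per-kb levels assume that the longest coding transcript is the one made, which the counts per gene do not show.

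**Figure D1:**
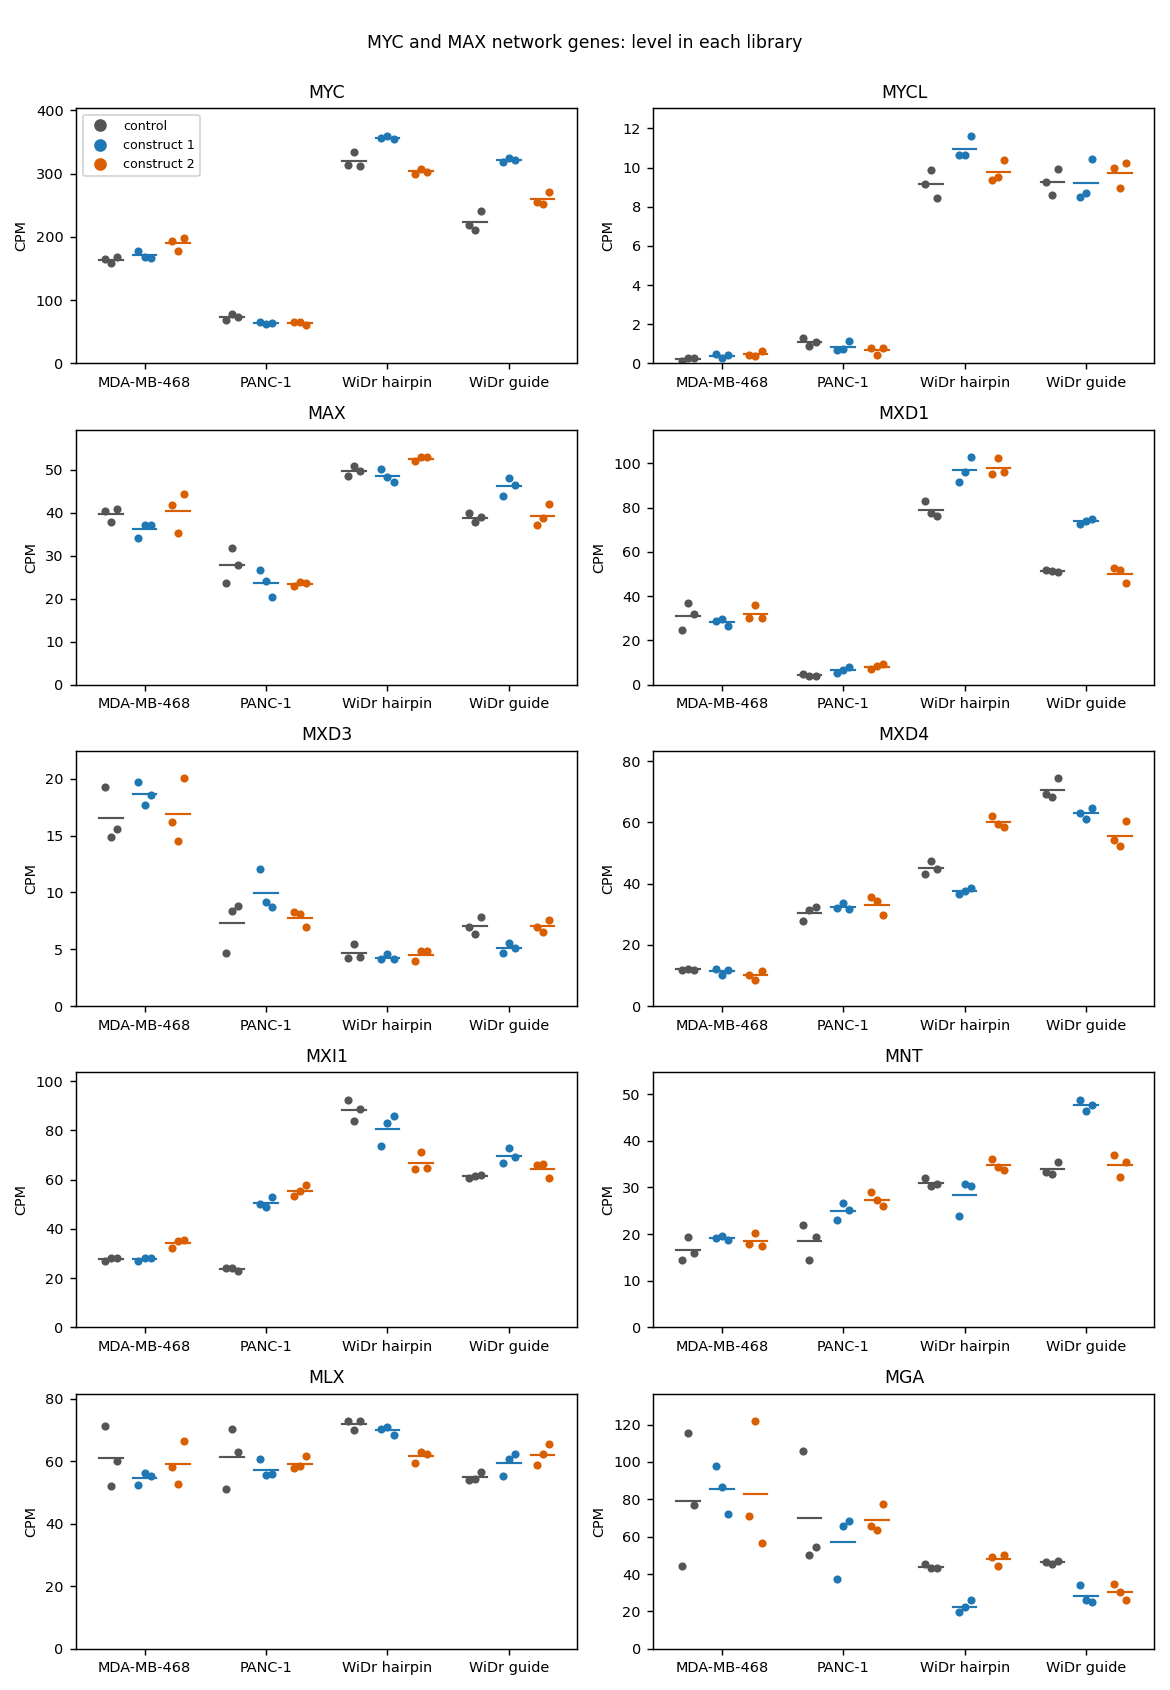
Level of each of the 10 genes in every library, in CPM (counts scaled to library size, linear axis from 0), by experiment, with points for libraries and bars for the mean of 3; construct 1 and 2 are hairpin or guide 1 and 2. MXI1 stands at 48.8 to 57.8 CPM in all 6 targeting PANC-1 libraries against 22.9 to 24.2 CPM in the controls, MYC is higher in guide than in guide control libraries of WiDr, and MGA scatters widely in MDA-MB-468 and PANC-1.

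MYC rose with 3 of the 4 WiDr constructs. In WiDr with guides MYC was at 219, 212 and 241 CPM in the control libraries, 319, 325 and 321 CPM with guide 1 and 255, 252 and 271 CPM with guide 2. All 6 guide libraries lay above the control, and the 3 arms did not overlap. MYC rose by 0.54 with guide 1 (SE 0.0520, adjusted p = 4.42e-07) and by 0.23 with guide 2 (SE 0.0520, adjusted p = 0.00386), and guide 2 lay below guide 1 (-0.31, SE 0.0518, adjusted p = 0.000207). By the genotype field the value of guide 2 is 0.53 with adjusted p = 0.085, from 1 library. In WiDr with hairpins MYC was at 314, 334 and 311 CPM in the controls, 356, 359.9 and 354 CPM with hairpin 1 and 299, 308 and 303 CPM with hairpin 2. It rose with hairpin 1 (0.17, SE 0.0462, adjusted p = 0.00777), and the value of hairpin 2 was -0.08 (adjusted p = 0.15), so that the hairpins differed from each other (-0.25, SE 0.0462, adjusted p = 0.000516). Without WiDr hairpin control replicate 3 the rise of MYC with hairpin 1 missed the threshold (0.15, adjusted p = 0.053). Hairpin 2 libraries carried the larger share of ribosomal RNA. The difference of MYC between the hairpins kept its call with ribosomal RNA genes left out before scaling, which checks the scaling alone. What else goes with that share was not tested.

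MYC in PANC-1 was at 68.1, 77.9 and 74.0 CPM in the controls, 65.8, 61.8 and 64.0 CPM with hairpin 1 and 65.7, 64.6 and 60.8 CPM in the libraries labelled hairpin 2. All targeting libraries lay below the lowest control, but the values of -0.19 (SE 0.0790, adjusted p = 0.099) and -0.19 (SE 0.0791, adjusted p = 0.0869) missed the threshold. Both passed with DESeq2 (adjusted p = 0.0317 and 0.0339), with all 36 libraries in 1 fit (0.00575 and 0.00473) and without PANC-1 control replicate 1 (-0.25 and -0.26, adjusted p = 0.0244 and 0.0182). In MDA-MB-468 MYC was at 165, 159 and 167 CPM in the controls, 177, 168 and 166 CPM with hairpin 1 and 193, 178 and 199 CPM with hairpin 2. Hairpin 2 lay above the controls without overlap, at 0.19 (SE 0.0655, adjusted p = 0.185), and the mean effect on MYC was not found to differ between WiDr and MDA-MB-468 hairpins (-0.06, SE 0.0617, adjusted p = 0.574). The MYC value of MDA-MB-468 hairpin 2 passed with DESeq2 (adjusted p = 0.0332) and with all libraries in 1 fit (0.0148). It also passed after correction for transcript length (0.0461), which was added after the data were seen. Over the 12 groups MYC thus ran from 63.7 CPM in the PANC-1 libraries labelled hairpin 2 to 357 CPM in WiDr with hairpin 1. The neighbours WiDr guide 1 (321.5 CPM) and WiDr hairpin control (319.6 CPM) overlapped in their libraries.

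MYCL passed the test with 1 construct. It rose with WiDr hairpin 1, from 9.16, 9.86 and 8.43 CPM to 10.6, 10.6 and 11.6 CPM (0.27, SE 0.0887, adjusted p = 0.02), with no overlap. The call was lost without hairpin 1 replicate 3 (adjusted p = 0.071) or control replicate 3 (0.1). Values with hairpin 2, guide 1 and guide 2 were 0.08, 0.01 and 0.09 (adjusted p 0.505 to 0.96). In MDA-MB-468 MYCL was at 0.140 to 0.278 CPM in controls and 0.284 to 0.650 CPM with the hairpins (0.80, SE 0.377, and 1.08, SE 0.372, adjusted p = 0.429 and 0.185). In PANC-1 it was at 0.887 to 1.27 CPM in controls, 0.673 to 1.13 CPM with hairpin 1 and 0.437 to 0.785 CPM in the libraries labelled hairpin 2 (-0.34 and -0.69, adjusted p = 0.418 and 0.107). A library of MDA-MB-468 held 5 to 23 MYCL counts, and the controls, at 5, 10 and 8, lay near the filter's minimum of 10. The gene was kept there through the hairpin libraries, where it is higher, so its values in this line are uncertain. With all 36 libraries in 1 fit the MYCL values of MDA-MB-468 hairpin 2 and the PANC-1 libraries labelled hairpin 2 passed (adjusted p = 0.0245 and 0.0119).

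MAX, on which MYC and its antagonists all depend, moved in 1 construct. With WiDr guide 1 it rose from 39.8, 37.8 and 39.0 CPM to 43.8, 48.2 and 46.4 CPM (0.26, SE 0.0606, adjusted p = 0.00213), without overlap. With guide 2 it was at 39.3 ± 2.45 CPM (0.04, adjusted p = 0.697), below guide 1 by -0.23 (adjusted p = 0.00754). The difference between the guides missed the threshold without guide 1 replicate 2 (adjusted p = 0.0528), and by the genotype field the rise with guide 1 was 0.13 (adjusted p = 0.35). In PANC-1 the values were -0.22 and -0.23 (SE 0.125, adjusted p = 0.219 and 0.182), with control libraries spread from 23.7 to 31.7 CPM. Without PANC-1 control replicate 1, the lowest of the controls, both passed (-0.33 and -0.35, adjusted p = 0.0387 and 0.0277). Values in WiDr hairpins and MDA-MB-468 ranged from -0.15 to 0.07 (adjusted p 0.311 to 0.998).

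MXI1 had the smallest adjusted p of the members in PANC-1, where it rose more than 2-fold. MXI1 encodes a repressor that competes with MYC for MAX. The controls were at 24.1, 24.2 and 22.9 CPM, hairpin 1 at 50.1, 48.8 and 53.005 CPM and the libraries labelled hairpin 2 at 53.5, 55.2 and 57.8 CPM. The targeting arms lay above the controls in every library, and each was tight. MXI1 rose by 1.11 with hairpin 1 (SE 0.0769, adjusted p = 1.58e-05, 2.15-fold) and by 1.24 in the libraries labelled hairpin 2 (SE 0.0771, adjusted p = 7.85e-06, 2.36-fold). Every alternative tried kept both calls of MXI1 in PANC-1. In WiDr the gene did not rise with hairpins: it was at 92.4, 83.9 and 88.5 CPM in controls, 73.5, 83.0 and 85.8 CPM with hairpin 1 (-0.12, adjusted p = 0.103) and 64.3, 71.3 and 64.9 CPM with hairpin 2, where it fell (-0.41, SE 0.0598, adjusted p = 4.87e-05). With guide 1 it rose from 61.4 ± 0.678 to 69.5 ± 3.11 CPM (0.19, adjusted p = 0.00832), a call lost without guide 1 replicate 2 (adjusted p = 0.085), and with guide 2 the value was 0.08 (adjusted p = 0.27). In MDA-MB-468 hairpin 2 MXI1 stood at 32.1, 34.99 and 35.5 CPM over controls of 27.1, 28.2 and 28.3 CPM. That value (0.27, SE 0.0718, adjusted p = 0.0825) passed with DESeq2 (0.0104), all libraries in 1 fit (0.00252) and the length correction (0.0182), while hairpin 1 gave -0.02 (adjusted p = 0.948).

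The MXI1 response was tested between experiments as the mean of both constructs against control in 1 experiment minus the same in the other, which for PANC-1 includes the libraries labelled hairpin 2. PANC-1 exceeded MDA-MB-468 by 1.03 (SE 0.0816, adjusted p = 2.93e-07) and WiDr hairpins lay below PANC-1 by -1.49 (SE 0.0822, adjusted p = 1.51e-09). WiDr hairpins also lay below MDA-MB-468 (-0.38, SE 0.0850, adjusted p = 0.00547), and WiDr guides above WiDr hairpins (0.40, SE 0.0692, adjusted p = 6.59e-05). Within WiDr, MXI1 values were below 0 with both hairpins and above 0 with both guides. The hairpins differed from each other in MXI1 (-0.29, adjusted p = 0.00128), a spread that the SE of a mean effect does not hold. The guide controls were at 61.4 CPM of MXI1 and the hairpin controls at 88.3 CPM, and the part of this in the difference was not tested.

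MXD1 rose in 5 of the 8 targeting arms and fell in none. In PANC-1 it went from 5.05, 4.13 and 3.82 CPM to 5.31, 6.55 and 8.10 CPM with hairpin 1 (0.63, SE 0.183, adjusted p = 0.0295). It stood at 7.01, 8.39 and 9.13 CPM in the libraries labelled hairpin 2, a rise of 0.92 (SE 0.183, adjusted p = 0.00493). No library overlapped the controls, although hairpin 1 replicate 1 stood close to them. That library had 6.47% of counts in genes with a coding transcript of at least 8000 bases, beside 8.84% and 8.93% in the others of hairpin 1. The controls had 9.72%, 6.20% and 6.36%. The part of this share in the MXD1 and MNT values of PANC-1 was not tested. The hairpin 1 call of MXD1 was lost without hairpin 1 replicate 2 or 3, replicate 2 of the libraries labelled hairpin 2, or control replicate 2 or 3 (adjusted p 0.0508 to 0.112), while the other call was kept each time. In WiDr MXD1 rose with both hairpins, from 82.8, 77.4 and 76.3 CPM to 91.4, 96.0 and 102.8 CPM (0.30, SE 0.0529, adjusted p = 0.000207) and to 95.3, 102.3 and 96.2 CPM (0.30, SE 0.0528, adjusted p = 0.000234). With all 36 libraries in 1 fit these 2 values were at adjusted p = 0.058 and 0.0501. With guide 1 it rose from 52.0, 51.2 and 51.0 CPM to 72.4, 73.9 and 74.9 CPM (0.54, SE 0.0563, adjusted p = 1.1e-06), and guide 2 was at 52.7, 51.9 and 46.0 CPM (-0.01, adjusted p = 0.88). The guides differed in MXD1 by -0.55 (SE 0.0562, adjusted p = 1.01e-06). By the genotype field, which puts 5 guide libraries together, the value of guide 1 was 0.23 (adjusted p = 0.376).

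MXD4 moved in opposite directions with the WiDr hairpins. It fell from 43.1, 47.3 and 44.8 CPM to 36.5, 37.5 and 38.7 CPM with hairpin 1 (-0.26, SE 0.0571, adjusted p = 0.00154) and rose to 62.2, 59.5 and 58.6 CPM with hairpin 2 (0.41, SE 0.0560, adjusted p = 2.82e-05). The 3 arms did not overlap, and the hairpins differed by 0.66 (SE 0.0566, adjusted p = 2.65e-07). With guide 2 MXD4 fell from 69.1, 68.3 and 74.3 CPM to 54.1, 52.3 and 60.3 CPM (-0.32, SE 0.0601, adjusted p = 0.00094). With guide 1 it stood at 62.9, 61.2 and 64.6 CPM (-0.15, SE 0.0597, adjusted p = 0.0522), below all controls but just past the threshold. The guide 1 value passed with median-ratio scaling (0.0453), and without guide 2 replicate 1, 2 or 3 (MXD4 adjusted p 0.00573 to 0.048). PANC-1 (0.10 and 0.13) and MDA-MB-468 (-0.09 and -0.27) gave no call for MXD4. MXD3, low in most groups, fell with WiDr guide 1, from 6.96, 6.35 and 7.87 CPM to 4.67, 5.51 and 5.11 CPM (-0.45, SE 0.111, adjusted p = 0.00376). Guide 2 was at 7.02 ± 0.558 CPM, 0.46 above guide 1 (SE 0.110, adjusted p = 0.00377). In PANC-1 hairpin 1 MXD3 was at 12.1, 9.12 and 8.67 CPM over controls of 4.66, 8.35 and 8.84 CPM, groups that overlapped (0.47, SE 0.229, adjusted p = 0.153). The remaining MXD3 values lay between -0.13 and 0.15.

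MNT, a widely expressed MAX-binding repressor, passed the test in the PANC-1 libraries labelled hairpin 2 and with WiDr guide 1, higher in each. In PANC-1 it went from 22.0, 14.4 and 19.4 CPM to 23.0, 26.8 and 25.1 CPM with hairpin 1 (0.43, SE 0.146, adjusted p = 0.0514) and to 28.9, 27.3 and 26.0 CPM (0.57, SE 0.146, adjusted p = 0.0167). All targeting libraries lay above the highest control. The first value passed with DESeq2 (adjusted p = 0.0429), and without PANC-1 control replicate 1 (0.55, adjusted p = 0.00597), while the second lost its call without replicate 1 or 2 of the libraries labelled hairpin 2 (MNT adjusted p = 0.0667 and 0.052). With WiDr guide 1 MNT rose from 33.4, 33.0 and 35.4 CPM to 48.8, 46.4 and 47.6 CPM (0.50, SE 0.0610, adjusted p = 4.99e-06), and with guide 2 it stayed at 37.0, 32.2 and 35.4 CPM (0.06, adjusted p = 0.511). The guides differed by -0.44 (SE 0.0607, adjusted p = 2.49e-05). The hairpins of WiDr gave -0.12 and 0.16, neither called, but differed from each other by 0.28 (SE 0.0777, adjusted p = 0.00951), with hairpin 1 replicate 1 the lowest at 23.9 CPM. Without that library the value of hairpin 2 passed (0.16, adjusted p = 0.0239). In MDA-MB-468 MNT values were 0.19 and 0.13.

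MLX, the partner of the glucose-sensing factors, moved in opposite directions with WiDr hairpin 2 and guide 2. It fell with WiDr hairpin 2 from 72.8, 70.1 and 72.9 CPM to 59.5, 63.1 and 62.3 CPM (-0.23, SE 0.0506, adjusted p = 0.00161), without overlap, and was at 70.3, 71.0 and 68.3 CPM with hairpin 1. With guide 2 it rose from 53.9, 54.3 and 56.7 CPM to 58.7, 62.3 and 65.4 CPM (0.20, SE 0.0593, adjusted p = 0.0218). The rise was lost without guide 2 replicate 2 or 3 or guide control replicate 1 or 2 (MLX adjusted p 0.0574 to 0.0849). Guide 1 gave 0.13 (adjusted p = 0.0876), a value that passed without guide 1 replicate 1 (0.18, adjusted p = 0.0347). No MLX value in PANC-1 or MDA-MB-468 passed (-0.18 to -0.04, adjusted p 0.59 to 0.924).

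MGA fell in WiDr with hairpin 1 and with both guides. With the hairpins it went from 45.6, 43.2 and 43.0 CPM to 19.5, 22.3 and 25.9 CPM with hairpin 1 (-0.95, SE 0.0844, adjusted p = 2.61e-07, 1.93-fold lower), and hairpin 2 stood at 48.97, 44.1 and 50.4 CPM (0.11, adjusted p = 0.279). The hairpins differed by 1.06 (SE 0.0841, adjusted p = 1.36e-07). With guides it fell from 46.3, 45.6 and 46.7 CPM to 34.1, 26.2 and 24.8 CPM with guide 1 (-0.69, SE 0.121, adjusted p = 0.000907) and to 34.8, 30.6 and 26.2 CPM with guide 2 (-0.58, SE 0.121, adjusted p = 0.00569). Both guide arms lay below every control and overlapped each other, and without guide 1 replicate 1 guide 2 lay above guide 1 (0.26, adjusted p = 0.0376). With all 36 libraries in 1 fit the guide values of MGA were at adjusted p = 0.0773 and 0.238, while hairpin 1 passed (0.0123).

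In MDA-MB-468 and PANC-1 MGA spread more between libraries of an arm than between arms. MGA has a coding transcript of up to 14439 bases, the longest of the 10 members. It ranged from 44.5 to 115 CPM among the MDA-MB-468 controls and from 50.4 to 106 CPM among the PANC-1 controls. The share of counts in the 1391 genes with a coding transcript of at least 8000 bases moved with it: MDA-MB-468 control replicate 1 had 5.59% and the lowest MGA, and control replicate 2 had 8.64% and 115 CPM. In PANC-1 control replicate 1 had 9.72% and 106 CPM against 6.20% and 6.36% with 50.4 and 54.7 CPM in the other controls. None of the 4 values of MGA against control in these lines passed (-0.29 to 0.10, SE 0.305 to 0.361). Removing a trend over transcript length in each library, added after the data were seen, gave -0.39 for PANC-1 hairpin 1 (adjusted p = 0.0323). The MGA difference between WiDr and MDA-MB-468 controls (-0.86, adjusted p = 0.0301) lost its call without MDA-MB-468 control replicate 2 or 3 or any 1 of the WiDr hairpin controls (adjusted p 0.0551 to 0.163). Over the 9 libraries of each experiment, log2 MGA and the share had a Pearson r of 0.98 (MDA-MB-468) and 0.84 (PANC-1). The length correction takes its trend from the same libraries, and the part of the long-transcript share in these values was not tested.

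In WiDr the long-transcript share moved with MGA as well, but less widely. It was 7.37% to 8.92% with hairpin 1 against 8.73% to 9.16% in the hairpin controls, and 8.40% to 9.42% and 7.56% to 8.94% with guides 1 and 2 against 9.26% to 9.43% in the guide controls. Hairpin 1 replicate 3, with 8.92%, and guide 1 replicate 1, with 9.42%, lay inside their control range and had 25.9 and 34.1 CPM of MGA, below every control library. The other libraries of hairpin 1 and of both guides lay below their control range of the share. Over the 9 libraries of each experiment, log2 MGA and the share had a Pearson r of 0.83 (hairpins) and 0.81 (guides). After the length correction MGA was at -0.94 with hairpin 1 (adjusted p = 5.03e-11), -0.58 with guide 1 (2.23e-06) and -0.41 with guide 2 (0.000344). Before it these values were -0.95, -0.69 and -0.58. The correction was added after the data were seen and takes its trend from the same libraries. The part of the share in the WiDr falls was not tested.

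**Figure D2:**
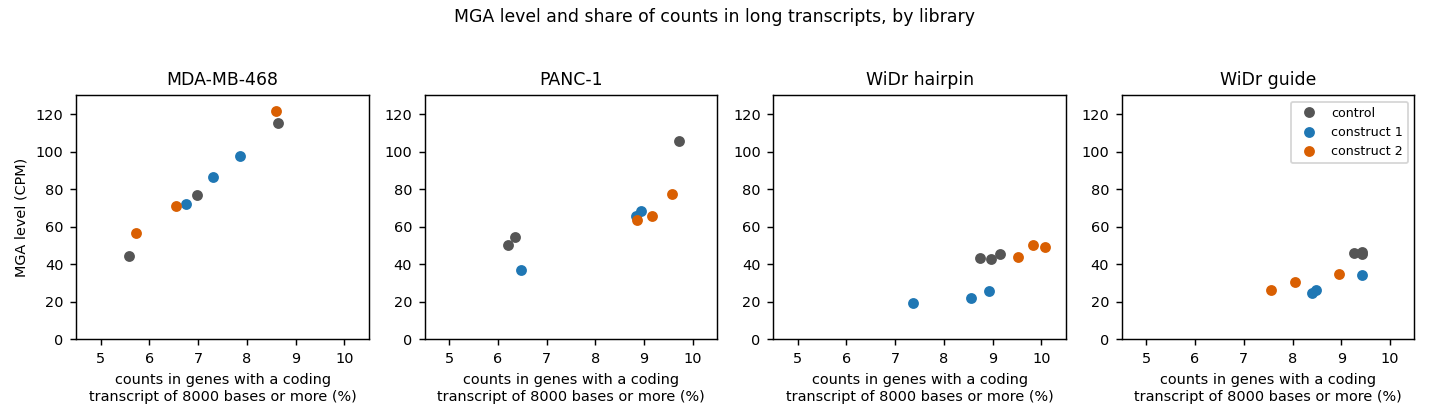
MGA level (CPM, linear axis from 0) against the percent of counts in genes with a coding transcript of 8000 bases or more, with a point for each library and a panel for each experiment; construct 1 and 2 are hairpin or guide 1 and 2. In MDA-MB-468 MGA climbs from 44.5 to 121.9 CPM along the axis in all arms alike, while in WiDr the hairpin 1 libraries (19.5 to 25.9 CPM) lie below the controls (43.0 to 45.6 CPM), also at 8.92%.

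Each construct was also read by how many members passed. With MDA-MB-468 hairpins 1 and 2 edgeR called 0 of 10 members (0 and 4 at an unadjusted p under 0.05; 0 and 2 with DESeq2), where 2.27% and 3.49% of all 14641 genes were called. In PANC-1, 2 members rose with hairpin 1 and 3 in the other targeting arm, against 30.2% and 33.4% of all genes called in either direction. No member fell there. With WiDr hairpin 1, 3 rose and 2 fell (48.0% of all genes called), with hairpin 2, 2 rose and 2 fell (44.7%), with guide 1, 5 rose and 2 fell (41.6%), and with guide 2, 2 rose and 2 fell (25.5%). No test of these shares was made. When changes of known size were simulated, 1.5-fold changes were recovered at 78.1% for WiDr hairpins and 78.5% for WiDr guides. The rate was only 27.3% for PANC-1 and 28.8% for MDA-MB-468. For 4-fold changes it was 96.8% to 98.4%. Numbers of members called therefore cannot be compared directly between experiments where changes are small. By the genotype field the counts are 2 with guide 1 and 1 with guide 2, and with all 36 libraries in 1 fit the count with guide 2 is 2. In PANC-1 the count with hairpin 1 was 5 without control replicate 1, and 1 without hairpin 1 replicate 2 or 3, replicate 2 of the libraries labelled hairpin 2 or control replicate 2 or 3. For the libraries labelled hairpin 2 it was 5 without control replicate 1, and for WiDr hairpin 1 it was 3 without control replicate 3. With WiDr hairpins 1 and 2 the single fit of all 36 libraries gave 3 and 2. There, as with guide 2, calls of members other than MXD1 and MGA were lost too. Both constructs of an experiment share their controls. MXD1 and MXI1 rose in both targeting arms of PANC-1, where 1924 genes rose and 1672 fell in both of 15128 tested. MXD1 rose with both WiDr hairpins and MXD4 went opposite ways, beside 1761 genes up and 1844 down with both and 327 opposite of 14317. MYC rose and MGA fell with both guides, beside 1242 genes up and 917 down with both of 14649.

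Between constructs against the same target, 0 members differed in MDA-MB-468 (2 at an unadjusted p under 0.05; 1, MXI1, with DESeq2), where 0.437% of genes differed, and 0 in PANC-1 (0 unadjusted and 0 with DESeq2), where 0.106% differed. In WiDr 6 differed between the hairpins (42.4% of genes) and 6 between the guides (34.4% of genes). Of these, MYC, MXD4 and MNT differed in both pairs. Guide 1 was above guide 2 for MYC, MAX, MXD1, MXD4 and MNT and below it for MXD3. The MXD4 difference between the guides (-0.17, adjusted p = 0.0328) lost its call without any 1 of the guide 1 libraries or guide 2 replicate 1 or 2 (adjusted p 0.0558 to 0.125). By the genotype field, with 1 library for guide 2, no member differed between the guides, and guide 1 against its control kept MYC and MGA of its 7 calls.

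**Figure D3:**
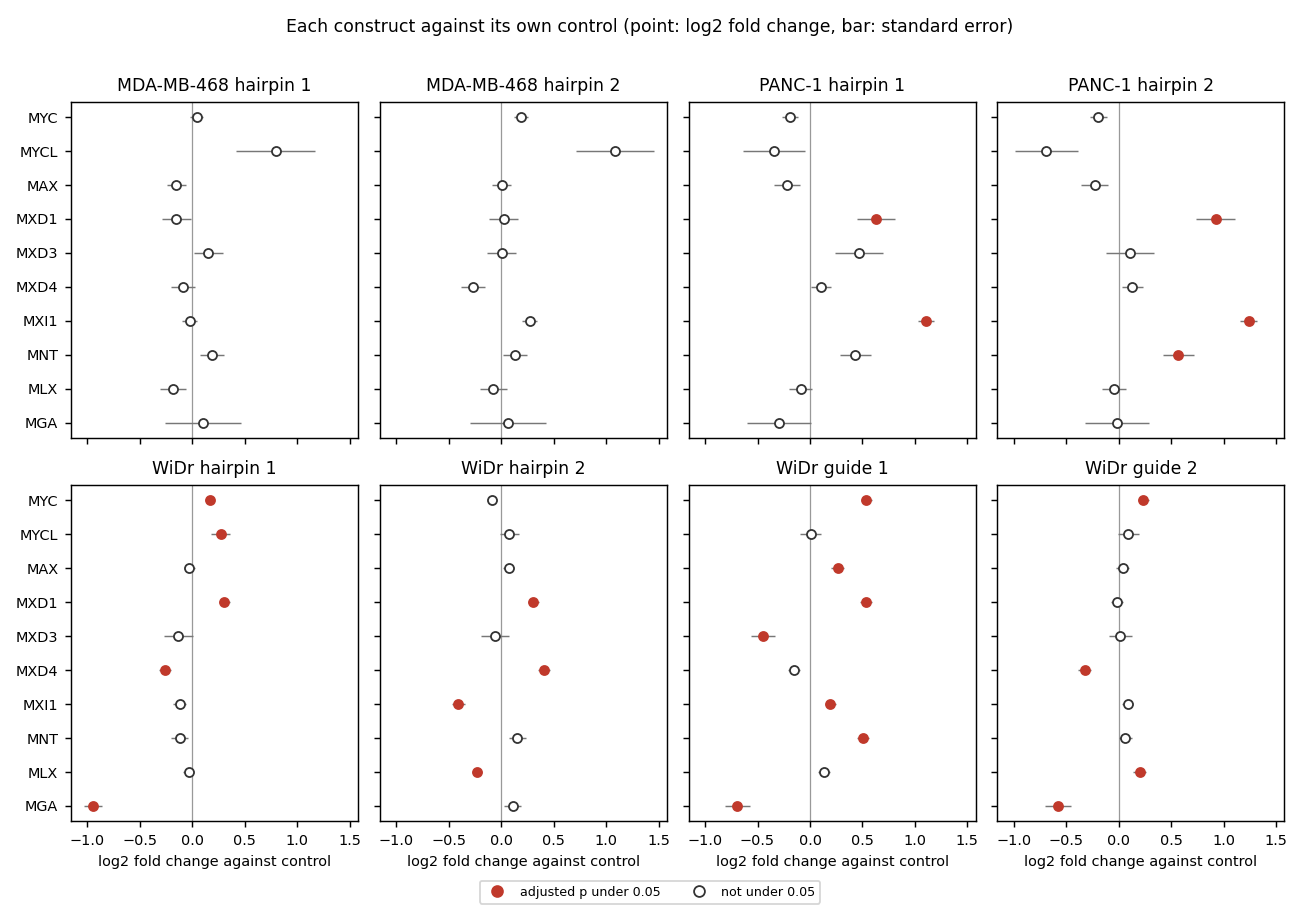
Log2 fold change of each gene against the control of its own experiment (point) with its standard error (bar), 1 panel for each construct; filled points passed an adjusted p under 0.05, and the panel headed PANC-1 hairpin 2 shows the libraries labelled hairpin 2. MXI1 lies at 1.11 and 1.24 in PANC-1 and at -0.12 and -0.41 with WiDr hairpins, MGA lies at -0.95, -0.69 and -0.58 with 3 of 4 WiDr constructs, and no MDA-MB-468 point passed.

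The differences of effect between experiments were tested for all 10 members, and the PANC-1 effect averages hairpin 1 and the libraries labelled hairpin 2, whose target RNA went against the label. Each effect is the mean of 2 constructs, although 6 members differed between the WiDr hairpins and 6 between the guides. The SE holds the spread between libraries and not that between constructs. Between WiDr guides and WiDr hairpins 5 members differed (41.6% of genes did), between PANC-1 and MDA-MB-468 hairpins 4 (23.9%), between WiDr and MDA-MB-468 hairpins 1 (18.2%), and between WiDr and PANC-1 hairpins 5 (37.2%). MYC was among them in 3 tests: its effect was 0.34 higher with guides than with hairpins in WiDr (SE 0.0575, adjusted p = 5.12e-05), 0.32 lower in PANC-1 than in MDA-MB-468 (-0.32, SE 0.0835, adjusted p = 0.00975) and 0.18 higher in WiDr hairpins than in PANC-1 (adjusted p = 0.0421). The last lost its call in 12 of the 18 fits without 1 library (adjusted p 0.0536 to 0.113). In the first, MYC stood at 224 CPM in the guide controls and 319.6 CPM in the hairpin controls. It was at 321.5 and 259.2 CPM with guides 1 and 2 and at 356.7 and 303.3 CPM with hairpins 1 and 2. The part of the lower guide control in this difference was not tested. MXD1 rose more in PANC-1 than in MDA-MB-468 (0.82, SE 0.207, adjusted p = 0.00855) and less in WiDr hairpins than in PANC-1 (-0.52, SE 0.163, adjusted p = 0.0199). The second of these lost its call without PANC-1 control replicate 2 or 3 or WiDr hairpin control replicate 1 (MXD1 adjusted p 0.0522 to 0.0798).

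The balance of the network was summed up per library as the per-kb level of MXD1, MXD3, MXD4, MXI1 and MNT together, divided by that of MYC. In PANC-1 this ratio was 0.713 ± 0.0381 (SD, n = 3) in controls, 1.23 ± 0.0348 with hairpin 1 and, for the other targeting arm, 1.28 ± 0.0321, and the ranges did not overlap (0.669 to 0.736 against 1.19 to 1.32). No library outside the PANC-1 targeting arms was above 0.736. In WiDr with guides the ratio was 0.574 ± 0.0237 in controls, 0.445 ± 0.00415 with guide 1 and 0.468 ± 0.0202 with guide 2, both below every control. In WiDr with hairpins it was 0.437 ± 0.0218, 0.381 ± 0.0256 and 0.472 ± 0.00914, and in MDA-MB-468 0.393 ± 0.0224, 0.388 ± 0.00718 and 0.365 ± 0.0227. The ratio of MYC to MAX per kb was 3.55 ± 0.275, 3.63 ± 0.477 and 3.62 ± 0.203 in PANC-1, while in WiDr it was 7.69 ± 0.497 in guide controls, 9.30 ± 0.354 with guide 1 and 8.80 ± 0.311 with guide 2. In the WiDr hairpin experiment it was 8.57 ± 0.203 in controls, 9.80 ± 0.316 with hairpin 1 and, lower than in every control, 7.69 ± 0.0556 with hairpin 2. In MDA-MB-468 it was 5.51 ± 0.0845, 6.30 ± 0.534 and 6.29 ± 0.394. These are ratios of RNA under the transcript length chosen, given as a description with no test.

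Other genes of the network were counted from lists by role. Of MYCN, MLXIP and MLXIPL, the glucose-sensing factor MLXIPL rose in PANC-1 (0.92, adjusted p = 0.00253, from 3.45 to 6.51 CPM, and 0.53, adjusted p = 0.0318). MLXIP, its close relative, rose with both WiDr hairpins (0.45 and 0.62) and fell with guide 1 (-0.34, adjusted p = 7.34e-05). Of their glucose-responsive targets TXNIP and ARRDC4, which encode arrestin-like brakes on glucose uptake, both rose with both guides (ARRDC4 0.67 and 0.37, TXNIP 0.54 and 0.23), and ARRDC4 fell in PANC-1 (-1.04 and -0.95) and rose with WiDr hairpin 1 (0.15, adjusted p = 0.0272). In MDA-MB-468 ARRDC4 was the one listed gene outside the MYC-induced list that passed. It went from 0.265 CPM to 1.24 CPM with hairpin 1 (2.18, adjusted p = 0.008) and 5.34 CPM with hairpin 2 (4.28, adjusted p = 0.00018). Its controls lay near the filter's minimum count of 10, so the gene could be kept through the hairpin libraries, where it is high. The size of these rises is therefore uncertain. TXNIP was not tested in this line.

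Among 13 MGA and PRC1.6 partners, 2 fell and 0 rose with PANC-1 hairpin 1. In the libraries labelled hairpin 2, 5 fell and 0 rose. The falls were led by L3MBTL2 (-0.49 and -0.58), a chromatin reader of the complex, and CBX3 (-0.58 in the latter), a heterochromatin protein that rose with WiDr hairpin 1 (0.33). With WiDr hairpin 1, 5 rose and 3 fell, with HDAC2, a histone deacetylase, at 0.49 and E2F6, a DNA-binding subunit, at -0.36. With hairpin 2, 2 rose and 4 fell (HDAC2 0.37, E2F6 -0.46). With guide 1, 1 rose and 3 fell, and with guide 2, 2 rose and 0 fell. TFDP2, a partner of E2F proteins, fell with guide 1 (-0.50) and rose with both WiDr hairpins (0.23 and 0.31). Of this list, 15.4% and 38.5% were called in the PANC-1 arms, beside 30.2% and 33.4% of all genes. With the WiDr hairpins it was 61.5% and 46.2% beside 48.0% and 44.7%, and with the guides 30.8% and 15.4% beside 41.6% and 25.5%. The shares of all genes called, for every list, are those given for each construct. List medians lay between -0.16 and 0.09 beside -0.02 to 0.02 over all genes.

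Of 9 SIN3 and NCOR corepressor genes 1 fell with each PANC-1 construct (11.1%, beside 30.2% and 33.4% of all genes called). With WiDr hairpin 1, 2 rose and 1 fell (33.3%, beside 48.0%), and with hairpin 2, 1 rose and 1 fell (22.2%, beside 44.7%). Guide 1 had 1 rise and 1 fall (22.2%, beside 41.6%), and guide 2 had 3 rises and 3 falls (66.7%, beside 25.5%). SAP30, a subunit of the SIN3 complex, rose with both WiDr hairpins (0.93 and 0.47) and guide 2 (0.45), and SIN3A, the scaffold, fell with WiDr hairpin 1 (-0.23) and both guides (-0.22 and -0.26). Of 18 MYC coactivators 4 fell and 1 rose with PANC-1 hairpin 1. In the PANC-1 arms 27.8% and 33.3% of this list were called, beside 30.2% and 33.4% of all genes. The libraries labelled hairpin 2 had 6 falls and 0 rises, among them the acetyltransferase KAT2A (-0.58 and -0.54; it fell also with WiDr hairpins 1 and 2, -0.21 and -0.50, and guide 1, -0.38) and the ATPase RUVBL2 (-0.50 and -0.76). With guide 1, 7 fell and 1 rose (44.4% of the list called, beside 41.6% of all genes). With guide 2, 6 fell and 1 rose (38.9% beside 25.5%). TRRAP, the scaffold of MYC-bound acetyltransferases, gave -0.35 and -0.44, HCFC1 -0.40 and -0.40 and BPTF -0.38 and -0.34. WiDr hairpin 2 went the other way for BPTF (0.54), EP300 (0.39) and TRRAP (0.38), with 7 rises and 3 falls (55.6% called, beside 44.7% of all genes). The share of counts in long transcripts was lower than in every control in 5 of the 6 guide libraries and higher with hairpin 2 (9.51% to 10.1%), and its part in these values was not tested.

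Of 17 genes of MYC protein turnover, AURKA, a mitotic kinase that stabilises MYC-family proteins, rose with both WiDr hairpins (0.95 and 0.88) and guide 2 (0.39) and fell in PANC-1 (-0.57 and -0.97). KIAA1524, which encodes the phosphatase inhibitor CIP2A, rose with both WiDr hairpins (0.74 and 0.68) and fell with guide 1 (-0.27). USP28, a deubiquitinase for MYC, fell with both WiDr hairpins (-0.25 and -0.19) and guide 1 (-0.21). SKP2, a ubiquitin ligase subunit for MYC, rose in PANC-1 (0.54 and 0.50) and fell with guide 1 (-0.69). FBXO32 rose in PANC-1 (0.33 and 0.53), with the WiDr hairpins (0.56 and 0.40) and with the guides (0.88 and 0.26). In numbers, 2 rose and 2 fell with each PANC-1 construct, 7 and 3 with WiDr hairpin 1, 11 and 2 with hairpin 2, 4 and 5 with guide 1, and 3 and 0 with guide 2. Of all genes, 48.0% and 44.7% were called with the WiDr hairpins, 41.6% with guide 1 and 25.5% with guide 2. In MDA-MB-468 none of the 13 PRC1.6, 9 corepressor, 18 coactivator and 17 turnover genes was called.

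Of MYC-induced genes, a list of 50 genes of ribosome production, nucleotide synthesis and growth, more fell than rose in PANC-1. With hairpin 1, 26 of 50 fell and 2 rose (median -0.45 beside -0.02 over all genes). The libraries labelled hairpin 2 had 31 falls and 1 rise (median -0.46 beside -0.01). Of all 15128 genes, 2111 fell and 2455 rose with hairpin 1 (30.2% called), and 2523 fell and 2530 rose in the other arm (33.4% called). In both arms 25 listed genes fell and 1 rose, beside 1672 and 1924 of all genes. NOP16, a nucleolar protein, fell from 64.2 to 34.7 and 32.0 CPM (-0.88 and -0.997, adjusted p = 0.00689 and 0.00359), and NOP58, a small nucleolar RNP subunit, from 236 to 131 and 124 CPM (-0.84 and -0.92). HK2, the hexokinase of the first glycolytic step, went the other way, from 7.72 to 23.2 and 30.8 CPM (1.59 and 2.00, adjusted p = 3.57e-05 and 9.65e-06), and LDHA, lactate dehydrogenase, rose with hairpin 1 (0.44). The counts of falls were unchanged when ribosomal RNA genes were left out before scaling (26 and 31), which checks the scaling alone. They were 34 and 37 after the length correction. With 1 library left out they ran from 19 to 33 and from 22 to 38, highest without control replicate 1. The parts of the ribosomal RNA and long-transcript shares in these falls were not tested.

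In WiDr the MYC-induced genes went both ways. With guide 2, 22 of 48 rose and 1 fell (median 0.14), and with guide 1, 18 rose and 10 fell (0.06), with 13 up with both. Of all 14649 genes, 2071 rose and 1660 fell with guide 2 (25.5% called), 3133 rose and 2967 fell with guide 1 (41.6% called), and 1242 rose with both. NPM1, nucleophosmin, gave 0.16 and 0.33, and ODC1, the polyamine enzyme and a textbook MYC target, 0.37 and 0.31 with guides 1 and 2. SRM, spermidine synthase, rose with guide 1 (0.43), while CAD, the first enzyme of pyrimidine synthesis, and UTP20 fell (-0.37 and -0.40). With hairpin 1, 16 rose and 8 fell (median 0.03), and with hairpin 2, 9 rose and 19 fell (-0.09), where 3456 and 3415 of all genes rose and fell with hairpin 1 and 3178 and 3225 with hairpin 2. ODC1 rose with both hairpins (0.70 and 0.44), and LDHA (-0.40 and -0.58) and HK2 (-0.37 and -0.48) fell. These WiDr counts depended on single libraries: rises with guide 2 were 13 and 14 without guide control replicate 2 and 3, and falls with guide 1 were 6, 6 and 4 without guide control replicate 1, 2 and 3 and 6 and 5 without guide 1 replicate 2 and 3. Rises with hairpin 2 were 4, 4 and 3 without hairpin control replicate 1, 2 and 3 and 5 and 3 without hairpin 2 replicate 1 and 3, and falls with hairpin 1 were 5 without hairpin control replicate 3. With all 36 libraries in 1 fit 9 rose and 1 fell with guide 1, 3 rose and 0 fell with guide 2, 9 rose and 5 fell with hairpin 1 and 2 rose and 9 fell with hairpin 2. By the genotype field 6 rose with guide 1 and 0 with guide 2, which is then 1 library.

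In MDA-MB-468 edgeR called 0 of 49 MYC-induced genes with hairpin 1 (1 up and 1 down with DESeq2). With hairpin 2, 3 rose and 0 fell, among them the folate carrier SLC19A1 (0.50, adjusted p = 0.0164) and PPAN (0.41, adjusted p = 0.0213). The count was 0 without control replicate 3 or hairpin 2 replicate 1 or 3, and 1 without hairpin 1 replicate 3 or hairpin 2 replicate 2.

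**Figure D4:**
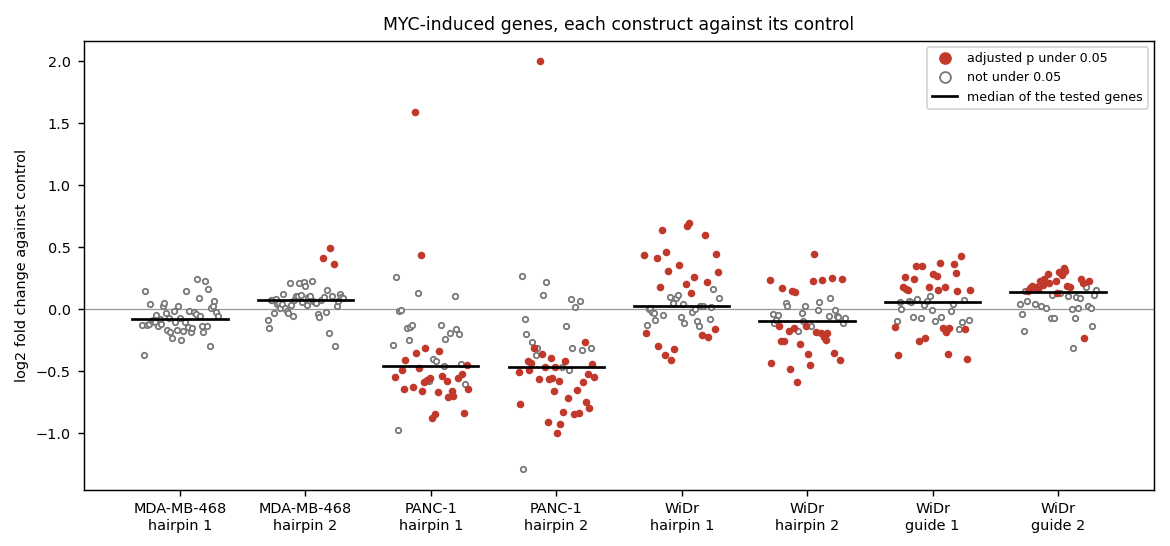
Log2 fold change of each tested MYC-induced gene against the control of its experiment, 1 column for each construct, filled where the adjusted p was under 0.05, with a bar at the median; points are spread sideways in alphabetical order, and PANC-1 hairpin 2 stands for the libraries labelled hairpin 2. The PANC-1 columns lie mostly below 0 (medians -0.45 and -0.46) apart from HK2 at 1.59 and 2.00, and the WiDr columns straddle 0.

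The 5 genes most like MYC in level, by Pearson's r of log2 CPM over the 36 libraries among 11536 genes, were STK24 (0.993), MAP2K3 (0.988), EPB41L4A-AS1 (0.986), SARS (0.986) and S100P (0.985). STK24 and MAP2K3 encode kinases, SARS a seryl-tRNA synthetase and S100P a calcium-binding protein. Over these libraries STK24 ran from 76.6 to 399 CPM and S100P from 0.322 to 1070 CPM. The libraries of a line share their line and experiment, so these values mostly set the lines beside each other and are given as a description.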

How the data were processed

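RNA of 36 libraries (12 groups of 3) was counted per gene. The authors deposited RSEM expected counts for 26475 genes, 2349 of them with no count in any library. Per the submitters' processing notes, Bowtie2 2.1.0 and RSEM 1.2.15 were used with hg38, and neither the annotation nor the strand setting is named there or in the labels. Expected counts were rounded to whole numbers. Groups follow the sample titles. Whether replicates came from separate cultures is not stated beyond the words biological replicates, so p-values measure the spread between these libraries.

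Each experiment of 9 libraries was fitted with edgeR 4.0.16 in R 4.3.3 (quasi-likelihood F test, robust, filterByExpr with a minimum count of 10 and total of 15, TMM scaling), and p-values were adjusted over all tested genes by the Benjamini-Hochberg method at 0.05. Standard errors were taken as |log2 fold change| over the root of F. In all, 20 comparisons were made: 8 of a construct with its control, 4 between constructs, 4 of effects between experiments and 4 between controls. Alternatives were DESeq2 1.42.0, other scaling, no filter, ribosomal genes left out, 1 fit for all libraries, a replicate block, fits of 1 construct with its control, grouping by the genotype field, leaving out 1 library and, chosen after seeing the data, a transcript length correction and all alternatives for the MYC-induced list. The scripts were tested on simulated data. Lengths and coordinates are from GENCODE 29, which matched 23899 genes (90.3%) by symbol.

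The members and gene lists were chosen with earlier results of these data known. All 10 members are named. Genes named from a list are examples among the 2 largest rises and the 2 largest falls that passed in some construct, and not every such gene is named. The gene that the constructs target is not reported here.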

Additional observations from a re-analysis of the deposited data

Results flagged for a closer look

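For 15 values the effect of the constructs (mean of both against their control) differed between experiments by edgeR's interaction test over 18 libraries, with Benjamini-Hochberg adjusted p over all genes. Each is a log2 difference of effects, and the PANC-1 effect includes the libraries labelled hairpin 2, whose target RNA went against the label.

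Between WiDr guides and WiDr hairpins, the effect on MYC was 0.34 higher with guides (SE 0.0575, adjusted p = 5.12e-05). The same difference was -0.32 for MXD4 (adjusted p = 0.000778), 0.40 for MXI1 (adjusted p = 6.59e-05), 0.26 for MNT (adjusted p = 0.0188) and 0.29 for MLX (adjusted p = 0.000918). MNT lost its call without guide control replicate 2 or WiDr hairpin control replicate 1 (adjusted p = 0.0526 and 0.0529). The controls differed too: MYC was at 224 CPM in guide controls and 319.6 CPM in hairpin controls. In the same order MXI1 was at 61.4 and 88.3 CPM, MLX at 54.95 and 71.9 CPM and MXD4 at 70.6 and 45.1 CPM. The part of these control levels in the differences was not tested. For MXD4 the hairpin effect averages opposite values, -0.26 and 0.41. Unlike constructs were averaged for MYC too (0.54 and 0.23 with guides, 0.17 and -0.08 with hairpins) and for MNT (0.50 and 0.06 with guides). The SE and p-values hold the spread between libraries and not that between constructs.

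Between PANC-1 and MDA-MB-468 hairpins, the effect on MYC was -0.32 (SE 0.0835, adjusted p = 0.00975), on MYCL -1.47 (adjusted p = 0.0213), on MXD1 0.82 (adjusted p = 0.00855) and on MXI1 1.03 (adjusted p = 2.93e-07). MYCL lost its call without MDA-MB-468 control replicate 1 (-1.23, adjusted p = 0.0604). Its value rests on MDA-MB-468 controls of 5, 10 and 8 counts and is uncertain. Between WiDr and MDA-MB-468 hairpins MXI1 differed by -0.38 (SE 0.0850, adjusted p = 0.00547).

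Between WiDr and PANC-1 hairpins the effect on MXI1 differed by -1.49 (adjusted p = 1.51e-09) and on MNT by -0.53 (adjusted p = 0.0145). MYC differed by 0.18 (adjusted p = 0.0421), MYCL by 0.64 (adjusted p = 0.04) and MXD1 by -0.52 (adjusted p = 0.0199). Leaving out single libraries ended the call of MYC for 12 of 18 libraries (adjusted p 0.0536 to 0.113) and of MYCL for 10 (0.0504 to 0.13).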

How the results depend on the processing

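Over the 80 values of a member against its control, no value called in the main fit reversed. Values not called could change sign, as MGA in PANC-1 hairpin 1 did (-0.29, and 0.11 without control replicate 1). The call was kept in 80 of 80 without the filter on low counts and with ribosomal genes left out. It was kept in 79 with median-ratio scaling, 77 with the replicate block, 75 with DESeq2 and 73 with the length correction. Fits of 1 construct and its control kept 75, and 1 fit of all 36 libraries kept 62. Of 720 values with 1 library left out, 15 lost a call and 10 gained one. In numbers of members called, DESeq2 gave 2 for MDA-MB-468 hairpin 2, 1 for the MDA-MB-468 hairpins against each other, 4 for PANC-1 hairpin 1 and 2 for WiDr against MDA-MB-468 effects. The single fit of all libraries gave 3 for MDA-MB-468 hairpin 2, 1 for its hairpins against each other, 6 for each PANC-1 construct, 3 and 2 for WiDr hairpins 1 and 2, 2 for guide 2, 3 for guide 2 against guide 1 and 3 for guide against hairpin effects. The length correction gave 2 for MDA-MB-468 hairpin 2, 1 for its hairpins against each other, 6 for PANC-1 hairpin 1 and 3 for WiDr against MDA-MB-468 effects. PANC-1 hairpin 1 had 1 in the fit with its control alone. The causes of these changes were not tested. With the replicate block the counts were 1 for PANC-1 hairpin 1, 2 for WiDr against MDA-MB-468 effects and 3 for WiDr against PANC-1 effects, and falls of MYC-induced genes in PANC-1 were 18 and 23. The numbers were not shown to pair libraries: residuals of libraries with the same number correlated from -0.91 to 0.92, those with other numbers from -0.91 to 0.89.

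Grouping the guide libraries by the genotype field, with 1 library for guide 2 assumed to vary like the others, gave 2 members for guide 1, 1 for guide 2 and 0 between the guides. The difference of guide 2 from guide 1 then reversed for MYC (0.17), MAX (0.14), MNT (0.25), MXD1 (0.33), MXD4 (0.15) and MXD3 (-0.30), with adjusted p = 0.927 for each. Leaving out 1 library moved the counts to 1 to 5 for PANC-1 hairpin 1, 2 to 5 for the libraries labelled hairpin 2, 3 to 5 for WiDr hairpin 1, 1 to 3 for WiDr against MDA-MB-468 effects (3 without MDA-MB-468 hairpin 2 replicate 2) and 2 to 6 for WiDr against PANC-1 effects (2 without PANC-1 control replicate 3 or WiDr hairpin control replicate 1, 6 without PANC-1 control replicate 1). MYCL had 5 to 23 counts a library in MDA-MB-468.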
